A study of Danio rerio with 6 samples.

Results

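The Ikaros family of zinc finger genes was followed in IT325 mutant and wild-type zebrafish. The family was taken as ikzf1 to ikzf5 and found by gene name, case ignored, among the 32105 rows of the count table. Of the 5 names, 4 had a row (ikzf1, ikzf2, ikzf4 and ikzf5), and ikzf3 is named only. All 4 rows passed the filter on low counts. The mutant libraries came from 3 zebrafish homozygous for the IT325 allele (t24980) of ikzf1, and the control libraries from 3 homozygous wild-type siblings. All were labelled as 5 days post fertilization and as whole body, and had a strain described as mixed wild-type strains. The labels give no sex or batch. IT325 is a nonsense allele from a chemical mutagenesis screen, and its protein loses C-terminal zinc fingers while the N-terminal DNA-binding fingers are kept. The allele shortens the protein and does not delete the gene, so its transcript can still be counted. Libraries of a further ikzf1 allele, fr105, were not analysed here.

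Ikaros proteins bind DNA through a group of zinc fingers near the N-terminus and pair with themselves and with one another through zinc fingers at the C-terminus. They both repress and activate genes, in part by bringing in chromatin complexes such as NuRD, and in mouse and human they are known for their part in lymphocyte development. Ikaros itself (ikzf1) is required for lymphocytes in mouse. Helios (ikzf2) is known from mouse T cells, in particular regulatory T cells, Aiolos (ikzf3) from mouse B cells and Eos (ikzf4) from mouse regulatory T cells. Pegasus (ikzf5) is the most divergent of them, and variants of it lower platelet numbers in human.

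The mutant libraries held 40732782 to 52954765 counts and the wild-type libraries 37390073 to 53279243. Libraries of 1 group differed from each other by more than counting noise (chi-square of 22.4 to 64.2 per degree of freedom), so no library was counted as a repeat of another. Of 17828 genes tested with edgeR's quasi-likelihood test, 33.9% passed an adjusted p of 0.05 (17.5% higher and 16.4% lower in mutants), so a change as such was common in this comparison. The phenotype check was rag1, the recombinase gene of developing lymphocytes, at 4.49, 16.0 and 7.59 CPM (counts scaled to a common library total) in mutants against 80.1, 72.7 and 86.5 CPM in wild type. The groups did not overlap (log2 fold change -3.01, SE 0.458, edgeR adjusted p 0.00560). The labelled tissue was checked against marker genes. None of the 12 skeletal muscle, 9 epidermal, 14 neural, 11 retina and lens or 13 liver markers with a row reached a mean of 10 CPM, and 6 of the retina and lens markers had no count in any library. In contrast, 11 of 11 pan-leukocyte and 13 of 13 erythroid markers did. The defining genes of muscle, eye and liver were thus near absent from libraries labelled as whole body, and the values below are given by library and genotype, without a tissue name. The labelled age was not tested against marker genes, so the values are not given a stage either. The libraries are bulk RNA, in which fewer cells of a type and less RNA per cell cannot be told apart.

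Of the 4 family members, 3 changed between the genotypes, and not in the same direction. The transcripts of ikzf1 and ikzf4 were higher in IT325 mutants, the transcript of ikzf2 was lower, and that of ikzf5 did not pass the test. The count of 3 of 4 stands beside a background of 33.9% of all genes tested, and 4 genes are too few to set a share apart from it. The same 3 passed an adjusted p of 0.01, as did 19.2% of all genes tested. The levels of the same 3 did not overlap between the groups, which held for 51.4% of all genes tested. Levels are given within each gene only, as transcript length was not taken into account. Fold changes come from the edgeR fit, which rescales the libraries, so they differ somewhat from ratios of the mean CPM. Where genes of a list are said to have most reads, this compares reads and not transcripts.

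**Figure D1:**
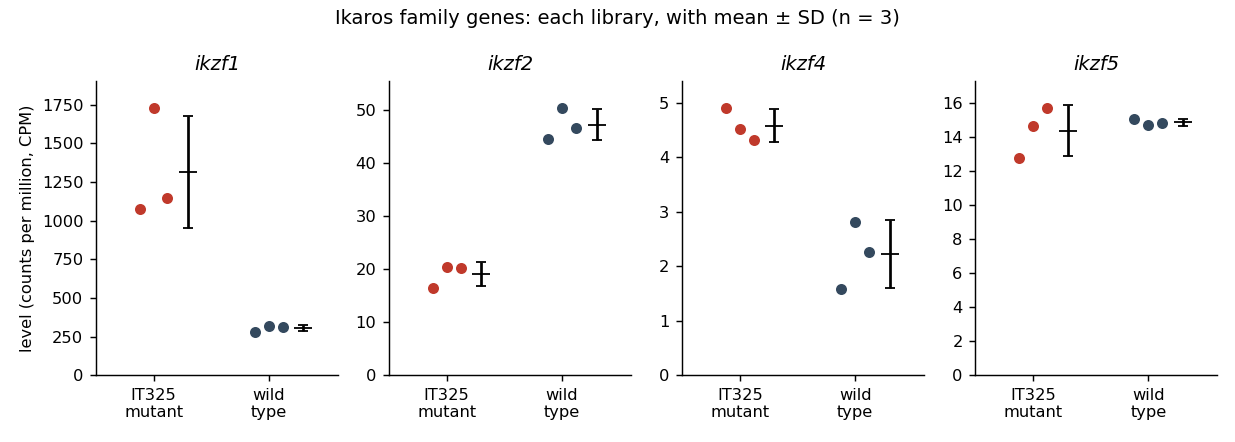
Level of each Ikaros family gene in CPM (vertical axes from 0, 1 scale per gene) in the 3 IT325 mutant and 3 wild-type libraries. Points are libraries and bars show the mean ± SD. Mutant points lie above wild type for ikzf1 (1073 to 1730 against 282 to 321 CPM) and ikzf4, below it for ikzf2, and overlap with it for ikzf5.

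The mutated gene itself, ikzf1 (ENSDARG00000013539), had levels of 1073, 1730 and 1145 CPM in IT325 mutants, against 282, 321 and 311 CPM in wild type. Every mutant library was above every wild-type library, and mutant replicate 2 stood highest. The means were 1316 ± 360 CPM in mutants against 305 ± 20.5 CPM in wild type (mean ± SD, n = 3 each). The rise was 4.63-fold, a log2 fold change of 2.21 (SE 0.174, 95% confidence interval 1.80 to 2.62, edgeR adjusted p 1.17e-04), and 775 of the 17828 genes tested had a larger one. Relative to their means, mutant levels were more spread than wild-type levels, with a coefficient of variation of 27.4% in mutants against 6.71% in wild type. Without mutant replicate 2 the log2 fold change was 1.98. Counts per gene carry no information on the mutated base, and the genotypes are those of the labels.

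In the opposite direction, ikzf2 (ENSDARG00000069111), encoding Helios, was at 16.5, 20.5 and 20.3 CPM in mutants against 44.6, 50.3 and 46.6 CPM in wild type. All 3 mutant libraries were below all 3 wild-type libraries, with little spread in either group. These levels rested on 833 to 872 counts per mutant library and 1666 to 2484 per wild-type library. The means were 19.1 ± 2.25 and 47.2 ± 2.93 CPM in mutants and wild type (mean ± SD, n = 3 each). In the edgeR fit the fall was 2.31-fold. The log2 fold change was -1.21 (SE 0.0907, 95% confidence interval -1.41 to -1.0, edgeR adjusted p 3.59e-05), and 6.82% of the genes tested had a more negative one.

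The gene for Eos, ikzf4 (ENSDARG00000037068), was counted at 4.91, 4.52 and 4.31 CPM in mutants against 1.58, 2.82 and 2.27 CPM in wild type. It had the fewest reads of the 4 members, with 260, 184 and 184 counts in mutants against 59, 114 and 121 in wild type. The lowest mutant library had 4.31 CPM, with an exact Poisson interval of 3.71 to 4.98 CPM. The highest wild-type library had 2.82 CPM (2.33 to 3.39 CPM), so the intervals of the closest libraries did not overlap. Such intervals leave out the spread between fish. They also take each read as an independent molecule, which reads are not, so counting error may be larger. The means were 4.58 ± 0.304 CPM in mutants against 2.22 ± 0.623 CPM in wild type (mean ± SD, n = 3 each). The rise was 2.22-fold, a log2 fold change of 1.15 with a wider interval than for ikzf1 or ikzf2 in relation to its size (SE 0.236, 95% confidence interval 0.61 to 1.69, edgeR adjusted p 0.00614). Larger log2 fold changes were found for 10.3% of the genes tested.

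For ikzf5 (ENSDARG00000056491), the gene for Pegasus, the levels were 12.8, 14.6 and 15.7 CPM in mutants against 15.1, 14.7 and 14.8 CPM in wild type. The groups overlapped, and the wild-type libraries all lay within the range of the mutant ones. The means were 14.4 ± 1.49 and 14.9 ± 0.195 CPM in mutants and wild type (mean ± SD, n = 3 each). The log2 fold change of 0.05 did not pass the test (SE 0.0968, edgeR adjusted p 0.711), and it was -0.05 without scaling factors. Its 95% confidence interval of -0.17 to 0.27 covers ratios of mutant over wild type between 0.890 and 1.21, so a change the size of that of ikzf2 or ikzf4 lay outside the interval, while changes within it cannot be told from none at this spread.

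**Figure D2:**
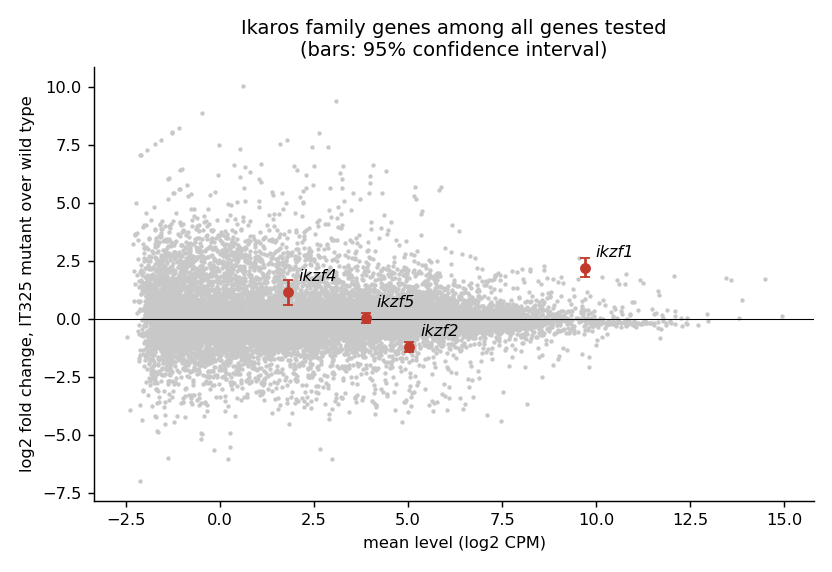
Log2 fold change of IT325 mutant over wild type (vertical axis) against the mean level in log2 CPM (horizontal axis) for the 17828 genes tested (grey) and the 4 Ikaros family genes (red, with 95% confidence intervals). The interval of ikzf5 includes 0, and the other 3 lie away from it, ikzf1 at 2.21, ikzf4 at 1.15 and ikzf2 at -1.21.

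Summed over the 4 members, the family took 1107, 1770 and 1185 CPM in mutants against 343, 389 and 375 CPM in wild type, so the sum followed ikzf1. Without ikzf1 the sum went the other way, with 34.1, 39.6 and 40.3 CPM in mutants against 61.2, 67.8 and 63.7 CPM in wild type. The reads of the other members together therefore did not rise beside those of ikzf1. In wild type that sum was mostly reads of ikzf2 (a mean of 47.2 of 64.2 CPM), so it reflects the fall of ikzf2. The rise of ikzf4, from a mean of 2.22 CPM in wild type to 4.58 CPM in mutants, is too small to show in it. Of the reads of the family, ikzf1 took 97.1% ± 0.601 in mutants against 82.6% ± 0.419 in wild type, and ikzf2 took 1.45% ± 0.279 in mutants against 12.8% ± 0.305 in wild type (mean ± SD, n = 3 each). These are shares of reads and not of transcripts, since counts were not scaled by length.

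Ratios within a library do not depend on how libraries are scaled to each other. For each read of ikzf2, there were 65.1, 84.6 and 56.5 reads of ikzf1 in mutants against 6.33, 6.38 and 6.68 in wild type. The log2 ratio of ikzf2 to ikzf1 was -6.03, -6.40 and -5.82 in mutants against -2.66, -2.67 and -2.74 in wild type, a difference of -3.39. Wild-type libraries agreed closely in this ratio, whereas mutant libraries were more spread, and mutant replicate 2, with the most ikzf1, had the lowest ratio.

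The log2 ratio of ikzf5 to ikzf1 was -6.39, -6.89 and -6.19 in mutants against -4.23, -4.45 and -4.39 in wild type, a difference of -2.13. For ikzf4 and ikzf1, both higher in mutants, the log2 ratio was -7.77, -8.58 and -8.05 in mutants against -7.48, -6.83 and -7.10 in wild type, a difference of -0.997. Each mutant library thus had fewer ikzf4 reads per ikzf1 read than each wild-type library. Without mutant replicate 2 this last difference was -0.774. None of the 3 ratios overlapped between the groups. Each exact two-sided permutation test gave p = 0.1 (0.1 after Benjamini-Hochberg adjustment over the 3 ratios). That is the smallest p that 3 libraries against 3 allow, so it could not reach 0.05. All 3 ratios share ikzf1 as denominator, so its rise lowers each of them, and they are not results separate from that rise. For ikzf5, whose own log2 fold change was 0.05, the difference mostly restates the 2.21 of ikzf1.

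**Figure D3:**
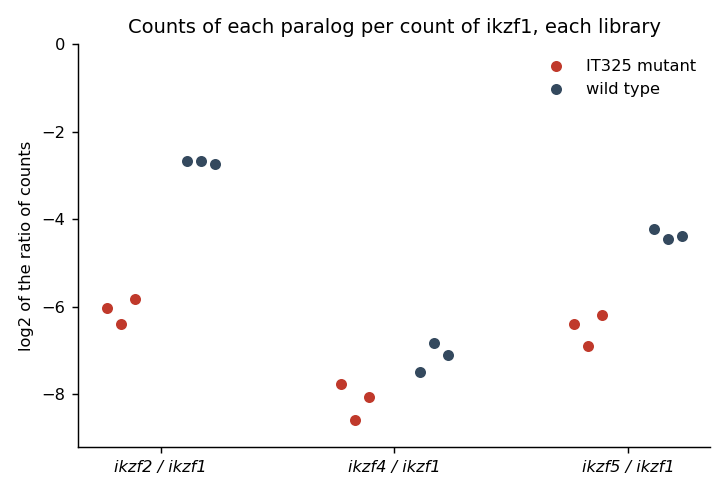
Log2 ratio of the counts of ikzf2, ikzf4 and ikzf5 to those of ikzf1 (vertical axis) in each IT325 mutant and wild-type library. Each point is 1 library. All mutant ratios lie below the wild-type ratios, furthest for ikzf2 (-6.40 to -5.82 against -2.74 to -2.66) and least for ikzf4.

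Markers of several blood cell types moved with these genes. Of all genes tested, 17.5% were higher and 16.4% lower in mutants, the background for the counts in this and the next paragraph. Of the T cell markers tested, 13 of 15 were lower in mutants and 0 higher, and the summed level of the list ran from 272 to 360 CPM in mutants against 1064 to 1147 CPM in wild type. Without mutant replicate 1 the count was 8 lower of 16 tested, and likewise without mutant replicate 3. The genes of the list with most reads were ccr9a, a chemokine receptor, and rag1. Most of the summed level was ccr9a alone (means of 182 CPM in mutants against 769 CPM in wild type). The paper lists ccr9a for both T cells and B cells, though it stands only in the T cell list here. Of the B cell markers, 10 of 11 were lower and 1 was higher, with sums of 375 to 497 CPM in mutants against 1420 to 1541 CPM in wild type. Syk and ighm, a kinase and the immunoglobulin M heavy chain of B cells, had the most reads of that list. The summed level of both lists was lower in every mutant library than in every wild-type library, as was ikzf2. Levels of single genes did not overlap between the groups for 51.4% of all genes tested, in either direction. Sums of the macrophage and pan-leukocyte lists, given below, were lower in every mutant library too, though both lists held genes called in each direction. Lower sums in every mutant library were also found for lists that mark no cell type, such as NuRD (832 to 959 CPM in mutants against 967 to 1059 CPM in wild type). The part of the T cell, B cell, macrophage and pan-leukocyte lists in the result for ikzf2 was not tested. No defining gene of the T cell or B cell list was at 0 in all libraries.

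In the direction of ikzf1 and ikzf4, 13 of 13 erythroid markers were higher in mutants, led by the globin hbaa1, whose reads may be shared with near-identical globin genes, and the anion exchanger slc4a1a, with sums of 23955 to 33102 CPM in mutants against 7050 to 10946 CPM in wild type. Thrombocyte markers were higher for 7 of 8 genes, with gp1bb and nfe2 the genes with most reads, and their sums were 368 to 424 CPM in mutants against 134 to 165 CPM in wild type. The highest erythroid sum was in mutant replicate 1 (33102, 26681 and 23955 CPM in the 3 mutants). Thrombocyte sums in the 3 mutants were 422, 424 and 368 CPM. They were nearly equal in mutant replicates 1 and 2, where ikzf1 was at 1073 and 1730 CPM. Haematopoietic progenitor markers had sums that overlapped between the groups, 1193 to 1478 CPM in mutants against 1201 to 1367 CPM in wild type, with 3 of 11 higher and 0 lower. Pan-leukocyte markers summed to 5011 to 5696 CPM in mutants against 6283 to 6637 CPM in wild type, with 2 higher and 3 lower of 11. Without any 1 of the wild-type libraries 0 of these were higher and 3 lower. For the progenitor and pan-leukocyte lists, 11 genes are too few to set a share apart from the background of 17.5% higher and 16.4% lower. Like the erythroid and thrombocyte sums, the neutrophil sum, given below, was higher in every mutant library than in every wild-type library. So were the epidermis, exocrine pancreas and nephron sums, so this separation was not limited to blood cell lists. The part of the erythroid, thrombocyte and neutrophil lists in the results for ikzf1 and ikzf4 was not tested.

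Genes whose levels ran most alike to each member were sought over the 6 libraries by Pearson's r of log2 CPM, as a description with no p, since the genotypes and the libraries are shared by all genes. Nearest to ikzf1 among 8656 genes were TMEM258 (r = 0.998), SLC45A4, ddr2l, PFDN1 and NDUFS5 (r = 0.994 each), named here as the symbol list gives them. All 5 were higher in mutants, but with log2 fold changes between 0.37 for NDUFS5, a subunit of mitochondrial complex I, and 0.76 for ddr2l, far smaller than that of ikzf1. These genes were picked for their likeness to ikzf1 over the same libraries. Their rise in mutants follows from that choice and is not a separate result, while the size of the change was not part of it.

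Nearest to ikzf2 were STAT4 (r above 0.999), the signal transducer downstream of interleukin 12 in mammals, foxp1b (r = 0.999), a forkhead factor, and MPEG1 (r = 0.999), a perforin-like gene used as a macrophage marker. All were lower in mutants, which follows from picking them by likeness to ikzf2. STAT4 was at a mean of 63.6 CPM in mutants against 192 CPM in wild type (log2 fold change -1.49, SE 0.0897). Foxp1b changed by -1.71 (SE 0.104) and MPEG1 by -2.15 (SE 0.108) on the log2 scale. The log2 fold changes of these 3 genes were further from 0 than that of ikzf2. Nearest to ikzf4 were LDHB, a lactate dehydrogenase subunit (r = 0.995, log2 fold change 0.58), ACOT7, an acyl-CoA thioesterase (r = 0.994, log2 fold change 0.82), and pold3, a subunit of DNA polymerase delta (r = 0.992). Pold3 had a log2 fold change of 0.29 (edgeR adjusted p 0.0340), which did not pass in 9 of 14 alternative fits, the adjusted p reaching 0.158. The genes near ikzf4 were picked in the same way, so their direction and this adjusted p are not separate results.

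The chromatin partners of Ikaros were examined complex by complex, beside a background of 33.9% of all genes called. In the NuRD complex, which removes acetyl groups and remodels nucleosomes, 2 of 12 genes tested were lower in mutants and 0 were higher, with a median log2 fold change of -0.10 against -0.01 for all genes tested. Those lower were the remodeller chd3 (34.0 ± 4.51 CPM in mutants against 52.3 ± 7.96 CPM in wild type, log2 fold change -0.52, edgeR adjusted p 0.00969) and mta3 (54.1 ± 2.15 and 76.8 ± 1.15 CPM in mutants and wild type, log2 fold change -0.40, edgeR adjusted p 0.00246; mean ± SD, n = 3 each). The main remodeller genes chd4b and chd4a had the most reads of the list, with log2 fold changes of 0.11 and -0.17 that did not pass the test. The number of NuRD genes called was 2 in each alternative fit.

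Of the Sin3 and CtBP corepressor genes, 4 of 8 had a row, of which 1 was higher and 1 lower. Ctbp1 rose (49.0 ± 1.96 CPM in mutants against 40.3 ± 4.28 CPM in wild type, log2 fold change 0.38, edgeR adjusted p 0.00971), and its paralog ctbp2a fell (3.13 ± 0.393 CPM in mutants against 6.45 ± 1.58 CPM in wild type, log2 fold change -0.94, edgeR adjusted p 0.00910; mean ± SD, n = 3 each). Sin3b, with more reads, had a log2 fold change of -0.26 that did not pass the test (edgeR adjusted p 0.0615) but passed without wild-type replicate 3 and under 2 other scalings. In the SWI/SNF remodeller, 2 of 9 genes were lower, smarcb1b (log2 fold change -0.54) and smarcd2 (-0.38), and its genes with most reads, the ATPase smarca4a and smarce1, had log2 fold changes of -0.09 and 0.08 without passing. In the Polycomb complex PRC2, which methylates histone H3, 1 of 5 genes was lower, the methyltransferase ezh1 at -0.40, and suz12b, with most reads of the list, was at -0.18, past the threshold only without wild-type replicate 3 and without scaling factors.

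Kinases, phosphatases and the ubiquitin ligase known to act on Ikaros proteins in mammals were examined as well. Their counts stand beside the same background of 33.9% of all genes called, and these lists are too short to set a share apart from it. Casein kinase 2 phosphorylates Ikaros and protein phosphatase 1 reverses it. Of 7 of these genes tested, csnk2b and ppp1cb were higher at log2 fold changes of 0.24 each and ppp1caa was lower at -0.28. The rises of csnk2b and ppp1cb did not pass in 6 and 8 of 14 alternative fits, including those without wild-type replicate 1 or 2 (adjusted p up to 0.177 for csnk2b and 0.186 for ppp1cb). Cereblon, named outside the rule for genes as the substrate receptor through which thalidomide analogs direct human IKZF1 and IKZF3 to degradation, had a log2 fold change of 0.13 that did not pass the test (crbn, 17.9 ± 0.598 CPM in mutants against 17.6 ± 1.13 CPM in wild type, mean ± SD, n = 3 each; edgeR adjusted p 0.332). In its ligase, ddb1 (0.21) and rbx1 (0.30) were higher on the log2 scale and the scaffold genes cul4b and cul4a, with most reads, did not pass. Leaving out any 1 of the 6 libraries ended the call of ddb1 (adjusted p up to 0.263 over the alternative fits), and leaving out mutant replicate 2 or wild-type replicate 2 that of rbx1 (up to 0.102).

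**Figure D4:**
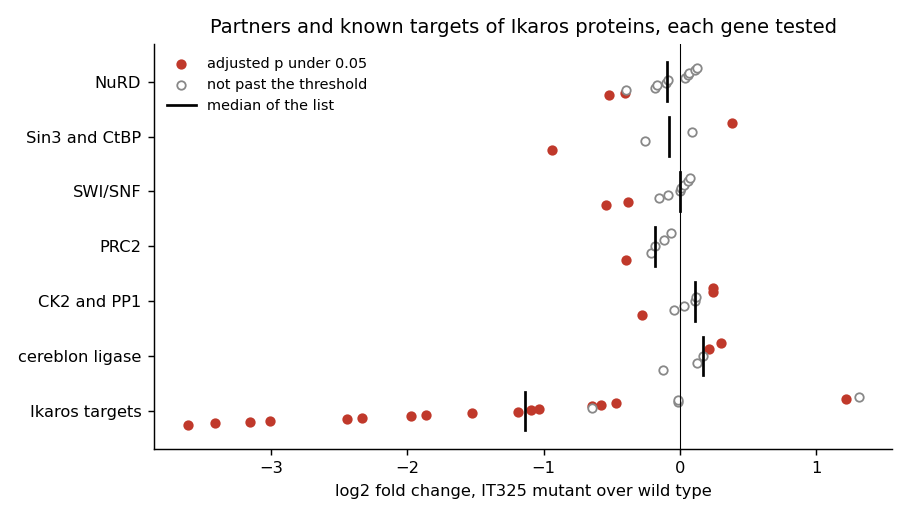
Log2 fold change of IT325 mutant over wild type (horizontal axis) for each gene tested in lists of partners, modifying enzymes and known targets of Ikaros proteins. Filled points passed an adjusted p of 0.05, open points did not, and bars mark list medians. The target list reaches down to -3.61 with a median of -1.14, while the partner medians lie between -0.18 and 0.17.

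Genes described as targets of Ikaros, in mammals or in zebrafish (ccr9a and irf4a, from an earlier ikzf1 mutant), were mostly lower in mutants. Of 20 tested, 15 were lower in mutants and 1 was higher, with a median log2 fold change of -1.14 against -0.01 for all genes tested, of which 16.4% were lower. Of the 15, 7 also stand in the T cell or B cell marker lists, and the fall of those lists is given above. The other 8 stand in neither list, but the lists do not hold every lymphocyte gene. The part of cell numbers in their fall was not tested. The largest fall was that of cd79b, a chain of the B cell receptor, at 2.95, 11.3 and 8.53 CPM in mutants against 88.4, 109 and 97.3 CPM in wild type (log2 fold change -3.61, SE 0.465, edgeR adjusted p 0.00300). Its groups were far apart, and the lowest value was in mutant replicate 1. Ccr9a, the gene of the list with most reads, had a log2 fold change of -1.97 (SE 0.117).

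The proto-oncogene paralogs myca and mycb went opposite ways. Mycb, the single gene of the list that rose, was at 180, 168 and 131 CPM in mutants against 80.8, 72.1 and 68.9 CPM in wild type (log2 fold change 1.22, SE 0.146, edgeR adjusted p 5.62e-04). Myca was at 45.9, 62.0 and 44.2 CPM in mutants against 117, 128 and 127 CPM in wild type (log2 fold change -1.19, SE 0.124, edgeR adjusted p 2.09e-04), and was chosen for naming after its values were seen. In neither gene did the groups overlap. The myeloid factor spi1b was at 320 ± 44.0 CPM in mutants against 346 ± 8.92 CPM in wild type (mean ± SD, n = 3 each) and did not pass the test, with a log2 fold change of -0.02. Its sign was positive without mutant replicate 1, mutant replicate 2 or wild-type replicate 1. Trps1, a GATA-type factor whose C-terminal zinc fingers resemble those of Ikaros, was at 16.4 ± 3.10 CPM in mutants against 19.4 ± 1.61 CPM in wild type (mean ± SD, n = 3 each; log2 fold change -0.15, edgeR adjusted p 0.421).

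Genes beside ikzf1 on the chromosome are inherited with its allele, and a difference tied to the allele and one tied to neighbouring loci cannot be told apart among siblings. Neighbours were taken from genes of the annotation that could be matched to a row, and rows not matched were left out, among them the row directly after ikzf1, which has no symbol and is described at the end. Of the 10 such genes on each side, 18 were tested, and 6 were higher and 2 lower in mutants. This is 44.4% against the background of 33.9% (17.5% higher and 16.4% lower), with a median log2 fold change of 0.18. These 18 genes are too few to set a share apart from the background. With 20 genes on each side, 12 of 34 were called, 6 in each direction, or 35.3%. None of these matched neighbours had as large a positive log2 fold change as ikzf1, but the row directly after ikzf1 had a larger one.

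The matched gene next to ikzf1 on one side was fignl1, an AAA ATPase of recombination repair, at 37.7, 45.2 and 53.3 CPM in mutants against 18.4, 19.3 and 19.7 CPM in wild type. Its groups did not overlap (log2 fold change 1.34, SE 0.107, edgeR adjusted p 4.47e-05), and its highest library was mutant replicate 3, not mutant replicate 2 as for ikzf1. On the other side, vwc2 had no count in any library. Mocos, the molybdenum cofactor sulfurase, was at 12.1 ± 0.792 CPM in mutants against 6.29 ± 1.33 CPM in wild type (mean ± SD, n = 3 each; log2 fold change 1.05), and the scaffold gene dlg5a at 46.2 ± 5.57 and 28.4 ± 1.69 CPM in mutants and wild type (mean ± SD, n = 3 each; log2 fold change 0.80). The transcription factor gene znf503 (0.67), the chaperone regulator bag5 (0.55) and the annexin gene anxa11a (0.32) were also higher on the log2 scale, the last not without wild-type replicate 1 (adjusted p up to 0.0561 over the alternative fits). Those lower were pank2, of coenzyme A synthesis (log2 fold change -0.55), and ifit8, of the interferon-induced IFIT family, at 0.511 ± 0.241 CPM in mutants against 3.28 ± 1.05 CPM in wild type (mean ± SD, n = 3 each; log2 fold change -2.57).

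**Figure D5:**
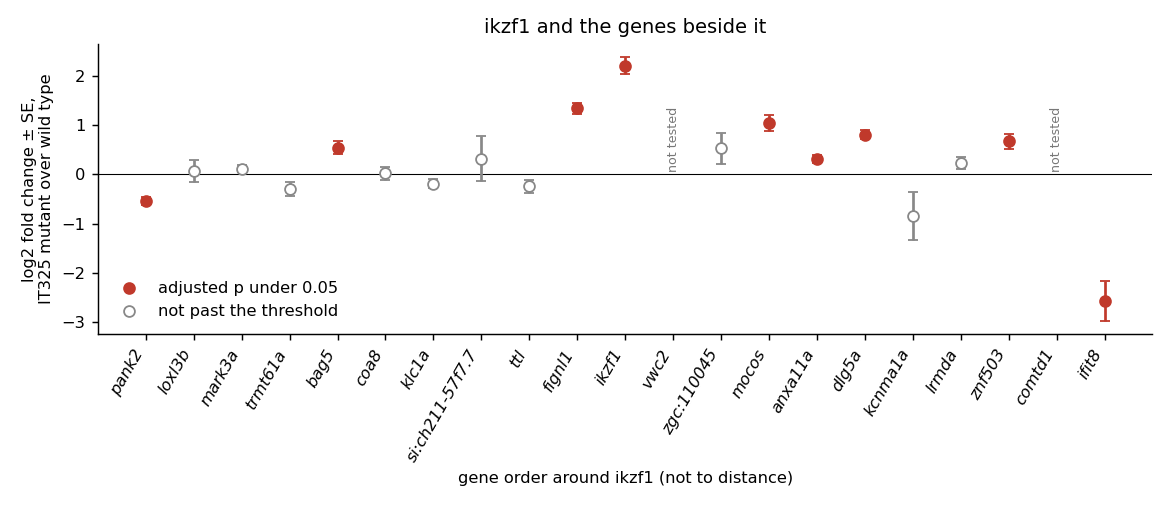
Log2 fold change ± SE of IT325 mutant over wild type (vertical axis) for ikzf1 and the 10 matched genes on each side in gene order (horizontal axis, not to distance); unmatched rows, such as the one directly after ikzf1 (log2 fold change 4.11), are not drawn. Filled points passed an adjusted p of 0.05, and genes marked as not tested had too few counts. The highest point drawn is ikzf1 at 2.21, followed by fignl1 at 1.34 and mocos at 1.05.

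The row after ikzf1 in the count table carries an identifier without a symbol, ENSDARG00000100901, and was chosen after its values were seen. It had 115, 121 and 90 counts in mutants against 3, 12 and 4 counts in wild type. The groups were far apart (2.42 ± 0.480 CPM in mutants against 0.151 ± 0.127 CPM in wild type, mean ± SD, n = 3 each; log2 fold change 4.11, SE 0.526, edgeR adjusted p 5.44e-04). Its counts were 0.172 to 0.202% of those of ikzf1 in mutants against 0.0241 to 0.0924% in wild type. Since the strand setting of the counting was left at an unnamed default, reads of overlapping genes cannot be told apart here.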

How the data were processed

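Poly-A RNA was measured in 6 libraries, 3 of homozygous IT325 mutants and 3 of wild-type siblings (3 individual fish per genotype). Per the labels, RNA was made into stranded libraries, read as pairs of 75 bp. The authors deposited raw counts per Ensembl gene, with no scaling or filter stated. The submitters' processing notes name STAR 2.5.2b-1, featureCounts 1.6.0.1 and DESeq2 2.11.40.1, and the annotation was an Ensembl set for Zv10. Strand and read-pair settings were left at unnamed defaults, which could affect overlapping genes. All columns of values were used.

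Symbols from a gene list were given to 26269 of 32105 rows (81.8%), many of them symbols of human orthologs. An annotation of another build, GRCz12tu, served for names and gene order only. Of 266 entries in 24 lists, 191 were matched by symbol and 41 by gene order (at least 4 genes in common among the 8 flanking named rows and the 15 flanking annotated genes per side), and 34 were not matched.

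Counts were tested in edgeR 4.0.16 under R 4.3.3 (filterByExpr with a minimum count of 10, TMM, robust quasi-likelihood, no covariate), with two-sided p-values adjusted by Benjamini-Hochberg over 17828 genes and a threshold of 0.05. Fold changes are mutant over wild type with a prior count of 0.125, with standard errors computed from the F statistic. Levels are CPM of the column total, on which the floor of 3 counts lay between 0.0563 and 0.0802 CPM. Named are the family members and the genes most alike to each. The latter were 5 for ikzf1 and 3 for each other member that passed, with a mean of at least 10 CPM (prior count 2). Also named are the 2 genes with most reads of the pathway, T cell, B cell, erythroid and thrombocyte lists. The rule also covers the other marker lists, of which lyz, cd74a, cd74b and slc20a1a are named by it. Mmp13a, marco, csf1ra and irf8 were named outside it, after their values were seen. Entries of these lists without a row are named too. From each pathway list come the largest rise and fall among genes past the threshold. The neighbours of ikzf1 past the threshold and rag1 are named as well. Other genes called in the shorter pathway lists were named because the count was 5 or fewer. Alternatives were other scalings and filters, DESeq2 1.42.0, a replicate block, an adjusted p under 0.01 and fits without 1 library. The code was tested on simulated data with 200 changed genes, far fewer than were called in the real data. The edgeR test recovered 53% of 2-fold and 81% of 4-fold changes, and 10.7% of its calls were false. For DESeq2 these values were 60%, 87% and 23.0%. Both shares of false calls were above the threshold of 0.05. The members, lists and tests were chosen with earlier results of these data known. Levels per coding length were planned but not computed, as no transcript lengths were used here. P-values measure the spread between these fish.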

Additional observations from a re-analysis of the deposited data

How the results depend on the processing

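The calls of ikzf1, ikzf2 and ikzf4 and the absence of a call for ikzf5 held in all 14 alternative fits, and 3 members were called in each. An adjusted p under 0.01 was applied to the main fit only, where the same 3 passed. With a replicate block ikzf4 had an edgeR adjusted p of 0.0164. The log2 fold change of ikzf1 ran from 2.11 to 2.22 under other settings and from 1.98 to 2.33 without 1 library, that of ikzf2 from -1.31 to -1.20 and from -1.25 to -1.14, and that of ikzf4 from 1.04 to 1.17 and from 0.97 to 1.34 (adjusted p 0.00690 to 0.0239 without 1 library). For ikzf5 it ran from 0.02 to 0.11 without 1 library and was -0.049 without scaling factors, by which the median of all genes was -0.11 against -0.01. There smarce1 was at -0.028. Spi1b ran from -0.098 to 0.034 without 1 library, and was positive without mutant replicate 1, mutant replicate 2 (0.029) or wild-type replicate 1 (0.011). The number of genes called was 6039, 6510 with DESeq2, 3419 at an adjusted p under 0.01 (fewer by construction) and 4587 to 5978 without 1 library. Without scaling factors 2428 genes rose and 3742 fell in mutants, compared with 3122 and 2917 under TMM. Same-numbered libraries correlated in their deviations from the group means at 0.0559, 0.122 and 0.0939, against -0.160 to 0.0643 for libraries of different numbers. Deviations within a group of 3 depend on each other, so these values cannot decide whether replicate numbers pair the libraries. A replicate block called 5370 genes, with ikzf1 at 2.18, ikzf2 at -1.21, ikzf4 at 1.17 and ikzf5 at 0.05. The difference in log2 ratio to ikzf1 without 1 library ran from -3.52 to -3.23 for ikzf2, -1.18 to -0.774 for ikzf4 and -2.28 to -1.93 for ikzf5. The pathway lists together had 28 calls, and 23 to 28 without 1 library. Of the genes beside ikzf1, 7 to 9 of 18 were called without 1 library, fits that were chosen after seeing the data. The causes of these shifts were not tested. The lowest count of a member was 59, for ikzf4 in a wild-type library, and its part in the spread of ikzf4 was not tested.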

Other observations

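The remaining marker lists are given here as values, beside a background of 17.5% of all genes tested higher in mutants and 16.4% lower. Neutrophil markers were higher in mutants for 4 of 6 genes tested and lower for 1 (3 and 0 without mutant replicate 1 or wild-type replicate 3). Their summed level was 29184 to 31328 CPM in mutants against 21102 to 21265 CPM in wild type. Lyz had the most reads of that sum (means of 18760 CPM in mutants against 11400 CPM in wild type), and mmp13a was the gene lower (617 and 1442 CPM). The neutrophil entries mpx, cpa5, lect2l and cxcr1 had no matched row and are not counted. Macrophage markers were mixed, with 2 of 7 higher and 3 lower, and sums of 1724 to 2049 CPM in mutants against 2698 to 2933 CPM in wild type. Most of the macrophage sum was reads of cd74a (means of 942 CPM in mutants against 1595 CPM in wild type) and cd74b (547 and 815 CPM). The paper lists both for B cells as well. The third gene lower was irf8 (log2 fold change -2.94), while marco (1.24) and csf1ra (0.64) were higher. The entries mpeg1.1, mfap4 and grn1 of that list had no matched row and are not counted. The row named MPEG1, described above as a macrophage marker, was lower (log2 fold change -2.15). Of the markers of natural killer-like cells, 3 of 8 were lower and 0 higher (359 to 417 CPM in mutants against 403 to 462 CPM in wild type). Of the nephron markers, slc20a1a alone was called, at 221 ± 51.9 CPM in mutants against 74.9 ± 16.9 CPM in wild type (mean ± SD, n = 3 each). The other 7 genes tested did not pass, with log2 fold changes in both directions, between -1.40 and 0.52. Without mutant replicate 1, 1 nephron gene was also lower, and without mutant replicate 2, 2 were higher. No liver marker of 10 was called, but 5 of 10 were lower without mutant replicate 1, whose liver sum of 30.0 CPM stood apart from 3.02 and 2.88 CPM in the other mutants, against 15.2, 27.1 and 8.16 CPM in wild type. The exocrine pancreas, epidermis and neural lists each had 1 gene higher and 0 lower, of 3, 5 and 5 tested. The epidermis call was 0 without mutant replicate 1 or 3 and 2 without mutant replicate 2, and the neural list had 2 without wild-type replicate 3. Of 3 skeletal muscle markers tested, 0 were called.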
